A study of Mus musculus with 4 samples.

Results

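The mitosis and spindle genes described here are 43 genes that drive or carry out cell division, found by symbol in a table of counts for 55487 genes. All 43 symbols were found and all 43 passed the filter on low counts. The table came from bulk RNA sequencing of Langerhans cells isolated from the ears of wild-type mice. It holds 2 libraries from ears that received Vaseline, the control, and 2 from ears that received imiquimod, a Toll-like receptor agonist used on mouse skin to cause a psoriasis-like inflammation. No allele or agent other than these is named, and the age of the mice and the dose and duration of treatment are not given in the sources used here. Nor is it stated whether the libraries came from separate animals, so p-values measure only the spread between these libraries, which may be technical. The sample descriptions carry letter codes, XZ for both Vaseline libraries, AU for imiquimod 1 and WY for imiquimod 2. Their meaning is not given in the sources used here, and whatever they mark cannot be told apart from the treatment in any fold change below.

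A dividing cell enters mitosis when cyclin B binds and activates the kinase Cdk1. Its chromosomes condense, a spindle of microtubules attaches to them at protein assemblies called kinetochores, and a checkpoint holds the anaphase-promoting complex inactive until every chromosome is attached. The cell is then pinched apart at the central spindle. Most of the genes for these proteins are transcribed late in the cell cycle and are repressed in resting cells by the DREAM complex, which binds CHR elements in their promoters. Langerhans cells are the resident antigen-presenting cells of the epidermis, and they renew by slow division in place.

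Library totals were 41998172 counts in Vaseline 1, 76028955 in Vaseline 2, 14902782 in imiquimod 1 and 20690182 in imiquimod 2. All 12 Langerhans cell markers were detected in every library. Levels are CPM, counts relative to the library total after scaling by TMM, a method that aligns libraries on the bulk of their genes. The TMM factors were 0.955, 0.598, 1.05 and 1.66 in the same order, so the choice of scaling moves every fold change in this comparison. Reads also lay at low level on genes known mainly from sensory neurons of the nose. The median level per exonic kilobase (kb) of 1491 olfactory and vomeronasal receptor genes, called the background below, was 0.395 and 0.160 CPM in Vaseline and 0.508 and 0.777 in imiquimod. Replicates within each treatment varied much more than sampling of reads allows, with a chi-square per degree of freedom of 93.2 in Vaseline and 86.7 in imiquimod.

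The mitosis and spindle genes were lower in imiquimod than in Vaseline as a set of values, but few passed the test gene by gene. Every one of the 43 had a negative log2 fold change of imiquimod over Vaseline, with a median of -1.86 and a range from -2.77 for Stmn1 to -0.74 for Aurka. With library totals alone as the scaling the median was -0.95 and 3 members were positive, namely Ccnb1, Aurka and Ttk. Over all 39439 genes tested the median was 0.41 with TMM and 1.30 with library totals. The members' median minus that of all genes was -2.27 with TMM and -2.26 with library totals. A change of scaling moves all genes by nearly the same amount, so these 2 values had to be alike. Their likeness is no separate evidence. Many of the 39439 genes lay near background. Among 14390 tested genes whose ratio to background averaged at least 5 over the 4 libraries, called genes above background, the median was -0.69 and 83.4% were negative. Vaseline 2, with the lowest background, counts most in that average, so it favours genes high in Vaseline and these values are a description of the genes so chosen. In a fit of those genes alone, the median of the 42 members among them minus that of all was -1.09.

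By the edgeR quasi-likelihood test, 2 members passed an adjusted p of 0.05 over all genes and both were lower, Bub1 and Ccnb2. The same test called 0.137% of all genes lower. It called 0 members higher, against 0.0634% of all genes. At an unadjusted p under 0.05 there were 34 members lower, against 5.1% of all genes, and 0 higher. DESeq2 called 27 members lower, against 1.69% of all genes, and 0 higher, and gave no adjusted p for Plk1, Aurka and Ttk. Neither Bub1 nor Ccnb2 passed with the older form of the quasi-likelihood test (adjusted p = 0.416 and 0.496), with RLE factors, with library totals alone, without a filter or among genes above background, and both calls were lost without Vaseline 2, without imiquimod 1 and without imiquimod 2. Without Vaseline 1 there were 13 members called lower, against 0.768% of all genes.

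The 2 groups did not overlap in 42 of 43 members, and imiquimod was the lower in each. The exception was Cdc20, at 14.7 and 26.9 CPM in Vaseline and 15.7 and 5.87 in imiquimod. Of all genes tested, 20.9% were lower without overlap. Those genes include 15018 whose ratio to background averaged at most 2, with a median log2 fold change of 1.12. No share without overlap was computed for genes above background, of which 83.4% had a negative log2 fold change. On library totals 36 members were lower without overlap, against 7.42% of all genes. The libraries of a group differed among themselves as well. All 43 members were higher in Vaseline 2 than in Vaseline 1, by a median of 1.98-fold (range 1.18 to 2.73). Vaseline 1 stood above the higher imiquimod library by a median of 2.11-fold (range 0.942 to 3.75), about the distance between the Vaseline libraries. In imiquimod, 34 members were lower in library 2 than in library 1 and 9 were higher, with a median ratio of 0.803 (range 0.265 to 1.37). The plot of levels by library shows this order gene by gene.

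**Figure D1:**
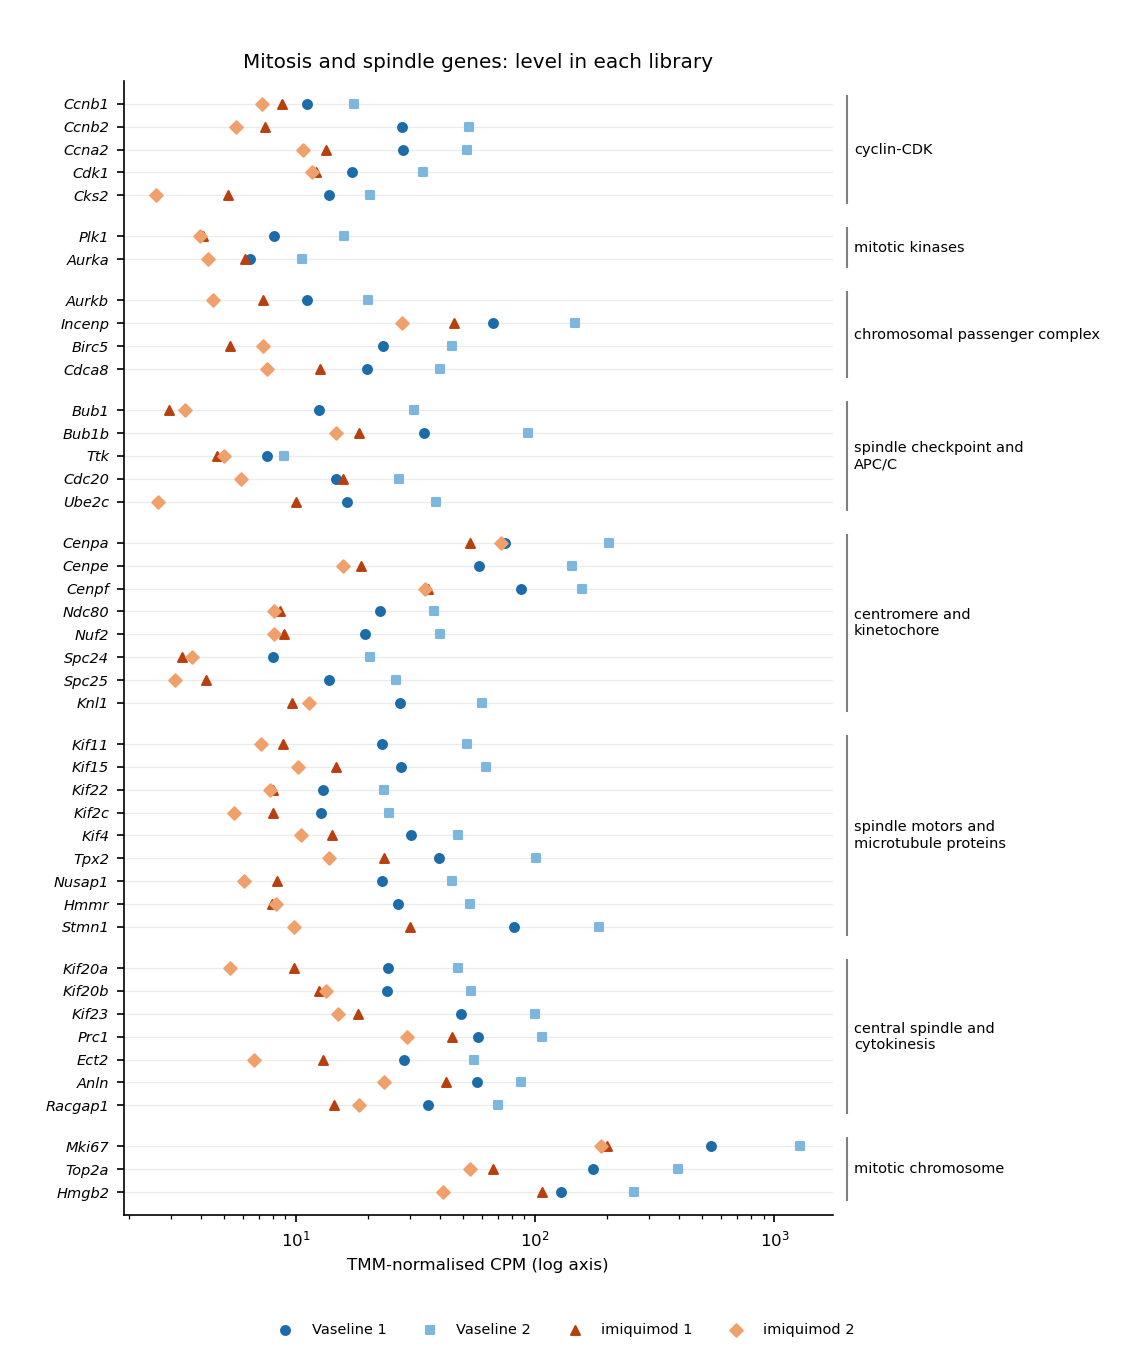
Level of each of the 43 genes in each library, as TMM-normalised CPM on a log axis, grouped by role; each symbol is 1 library. Vaseline 2 is the highest library for all 43 genes, and Cdc20 is the gene whose groups overlap.

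**Figure D2:**
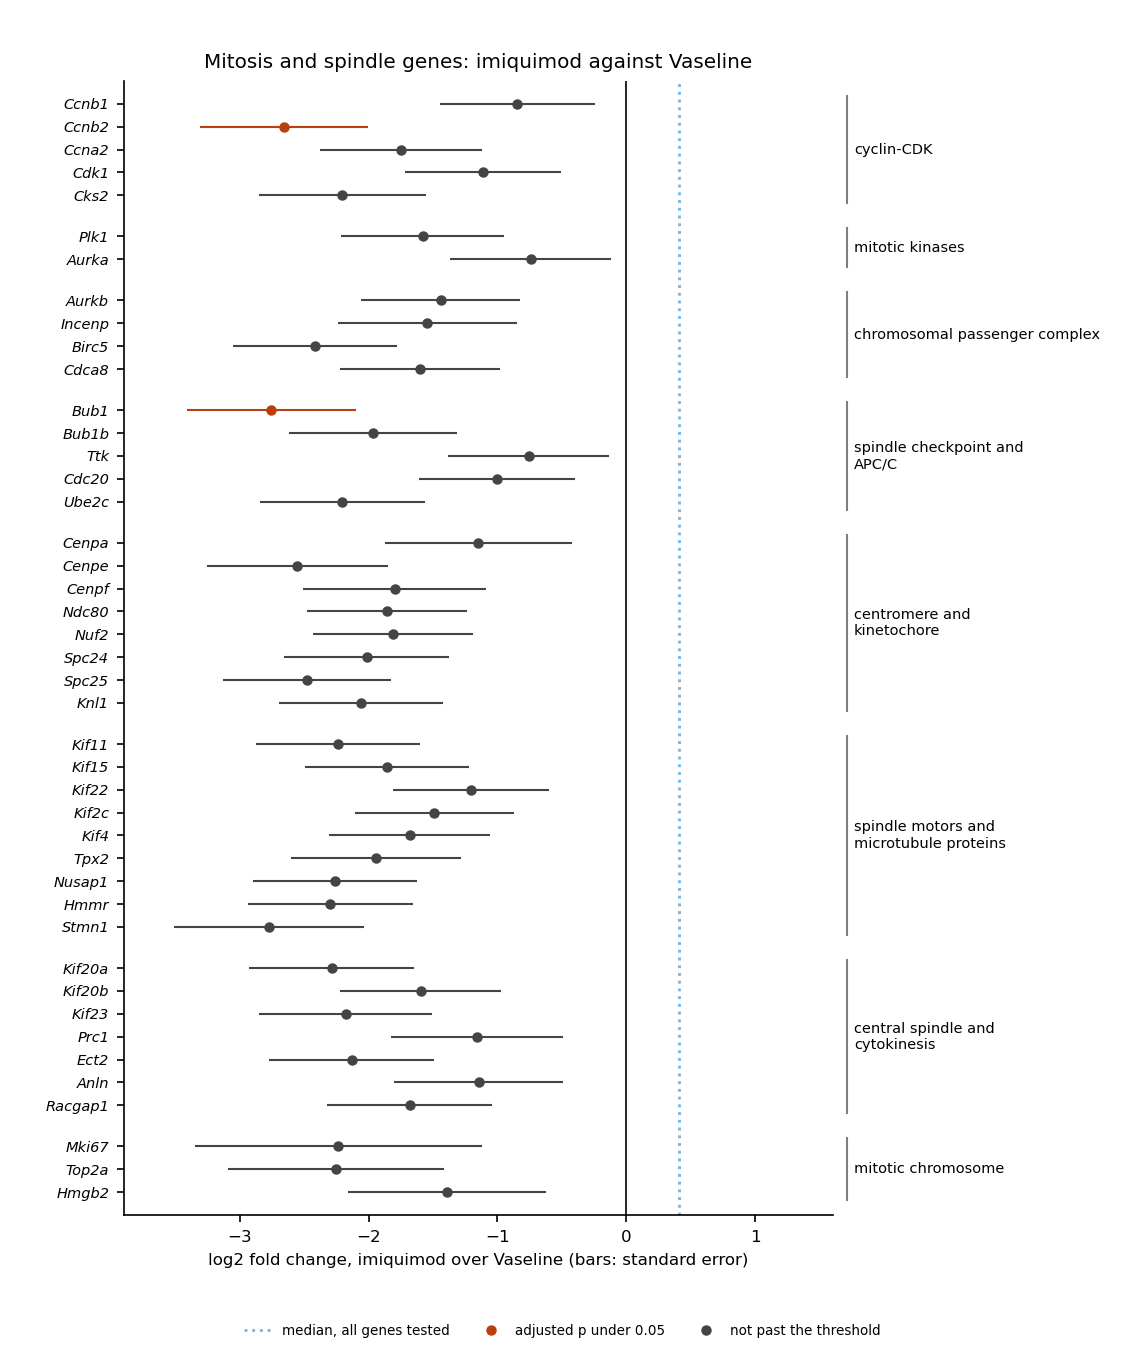
Log2 fold change of imiquimod over Vaseline for each gene (points) with its standard error (bars), from 2 libraries a group. All 43 points lie below 0, and Bub1 and Ccnb2, in orange, passed the adjusted p threshold; the dotted line marks the median of all genes tested (0.41).

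Promoters of the members were examined for the DNA elements through which this gene group is known to be controlled. RefSeq promoters on GRCm38.p6, from 250 bases before to 50 after the start, were matched for 36 of the 43 genes and gave 38 promoters. Aurkb, Ccna2, Incenp, Kif20a, Spc24, Stmn1 and Tpx2 had no entry in the table used. The sequences below are those of the 4 members of smallest p that had one, and show the start region where the elements cluster. They run 5′ to 3′ on the gene's strand and end 30 bases after the start. Capitals mark the CHR letters TTTGAA or TTCGAA and the NF-Y letters CCAAT on either strand, the reverse complement of CCAAT reading ATTGG. Bub1 lies at chr2:127831830-127832109, minus strand, Ccnb2 at chr9:70421525-70421804, minus strand, Spc25 at chr2:69206184-69206463, minus strand, and Birc5 at chr11:117848987-117849266, plus strand.
Bub1: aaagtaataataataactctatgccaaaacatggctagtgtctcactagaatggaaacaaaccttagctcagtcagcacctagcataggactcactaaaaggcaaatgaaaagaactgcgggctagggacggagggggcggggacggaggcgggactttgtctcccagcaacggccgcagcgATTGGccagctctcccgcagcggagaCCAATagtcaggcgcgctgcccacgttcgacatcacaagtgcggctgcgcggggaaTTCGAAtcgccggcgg
Ccnb2: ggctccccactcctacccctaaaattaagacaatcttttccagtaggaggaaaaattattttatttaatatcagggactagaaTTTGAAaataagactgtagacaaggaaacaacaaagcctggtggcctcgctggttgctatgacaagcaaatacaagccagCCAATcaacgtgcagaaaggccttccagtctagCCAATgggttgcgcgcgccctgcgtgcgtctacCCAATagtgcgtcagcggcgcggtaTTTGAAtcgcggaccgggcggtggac
Spc25: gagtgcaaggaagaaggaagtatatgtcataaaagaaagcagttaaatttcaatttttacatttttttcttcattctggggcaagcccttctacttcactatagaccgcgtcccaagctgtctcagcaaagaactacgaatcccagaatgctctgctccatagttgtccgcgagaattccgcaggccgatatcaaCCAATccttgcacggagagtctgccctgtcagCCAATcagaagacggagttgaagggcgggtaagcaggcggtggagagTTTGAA
Birc5: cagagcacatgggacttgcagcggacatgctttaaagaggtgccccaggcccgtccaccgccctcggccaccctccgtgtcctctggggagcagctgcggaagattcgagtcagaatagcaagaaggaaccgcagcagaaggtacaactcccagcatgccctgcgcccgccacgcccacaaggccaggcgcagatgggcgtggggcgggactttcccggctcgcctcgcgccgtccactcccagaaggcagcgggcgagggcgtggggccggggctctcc

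Bub1 held TTCGAA starting 15 bases after the start, with NF-Y letters 42 and 68 bases before it. Ccnb2 held TTTGAA 5 bases after the start and again 167 bases before it, and 3 copies of CCAAT at 21, 54 and 87 bases before. Spc25 held TTTGAA 25 bases after the start and CCAAT 23 and 55 bases before. The Birc5 window held none of these letters. Across the members, TTTGAA on either strand was present in 31 of 38 promoters (81.6%), against 17.9% of all 32851 promoters of the same length. It lay after the start in 19 of the 38 (50%), against 2.25% of all. CCAAT was present in 76.3% against 37.4%, and 2 or more copies in 55.3% against 11.7%. TTCGAA was present in 7.89% against 1.56%. A CHR match and a CCAAT match overlapped once among the members.

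Members with and without TTTGAA overlapped in fold change. The 29 genes with TTTGAA had a median log2 fold change of -1.68 (range -2.65 to -0.74) and the 7 without it one of -2.26 (range -2.75 to -0.85). Those 7 include Bub1, which held TTCGAA and CCAAT, and Ccnb1, Cks2 and Cenpe, which held CCAAT. In the other lists of cell cycle genes, TTTGAA was present in 51.6% of the promoters of other mitotic genes and in 10.0% of those of DNA replication genes. CCAAT was present in 69.4% and 63.3% of them, closer to the members' 76.3%. In 11 promoters of G1 cyclins and E2F, TTTGAA was present in 18.2% and CCAAT in 45.5%. In 18 promoters of cell cycle inhibitors and DREAM subunits these were 27.8% and 55.6%. A match is a description of the letters and no measurement of binding.

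**Figure D3:**
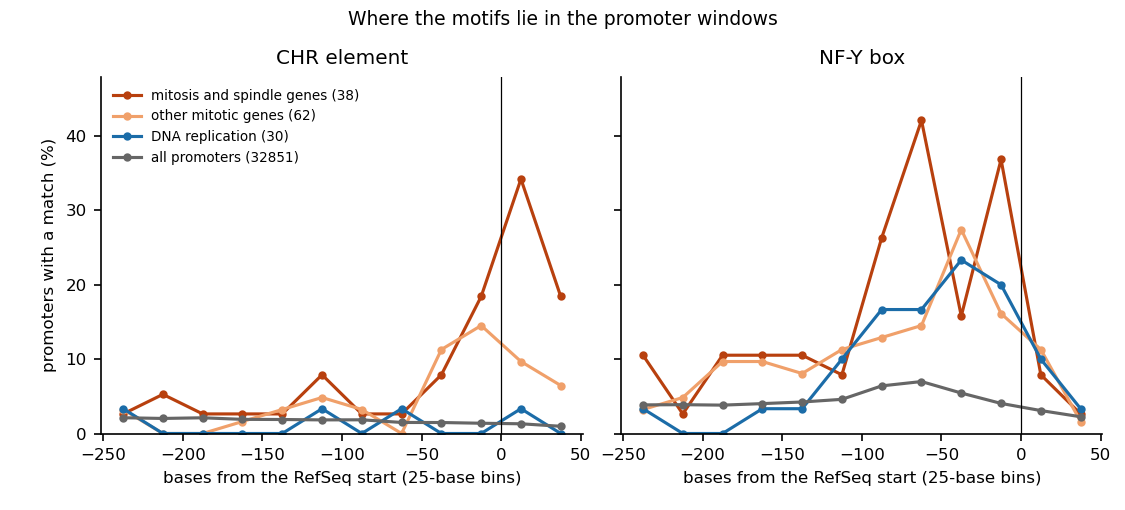
Percent of promoters with a match to the CHR letters TTTGAA (left) and the NF-Y letters CCAAT (right) in each bin of 25 bases, by distance from the RefSeq start, for 38 promoters of the mitosis and spindle genes, 62 of other mitotic genes, 30 of DNA replication genes and 32851 in all. The CHR line of the mitosis and spindle genes peaks in the first bin after the start, at 34.2% of promoters against 1.31% of all. Over the whole 50 bases after the start, 19 of the 38 promoters hold a match against 2.25% of all.

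Among the cyclins and their kinase, Ccnb2 was the member that passed. Ccnb2 (ENSMUSG00000032218, chromosome 9, 70407692 to 70421547, minus strand, GRCm38 with GENCODE vM21), a B-type cyclin, was at 27.8 and 53.0 CPM in Vaseline and at 7.41 and 5.60 in imiquimod. Both imiquimod libraries were far below both Vaseline libraries. Its log2 fold change was -2.65 (SE 0.65, n = 2 libraries a group, edgeR adjusted p = 0.0332). Cks2, a small subunit that binds Cdk1, was at 13.8 and 20.3 CPM in Vaseline and 5.17 and 2.60 in imiquimod, again without overlap, with a log2 fold change of -2.20 (SE 0.65, edgeR adjusted p = 0.112). The remaining 3, Ccna2, Cdk1 and Ccnb1, had log2 fold changes of -1.75, -1.11 and -0.85. Ccnb1, the other B-type cyclin, was at 11.1 and 17.4 CPM in Vaseline and 8.75 and 7.24 in imiquimod, so the B-type cyclins differed in size of change, a difference that was not tested. Ccnb1 and Cks2 have processed pseudogenes of over 95% identity, and their counts are uncertain to that extent.

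The mitotic kinases Plk1 and Aurka, which act at centrosomes and the spindle, did not pass. Plk1 was at 8.06 and 15.9 CPM in Vaseline and 4.09 and 3.97 in imiquimod, and Aurka at 6.44 and 10.6 in Vaseline and 6.13 and 4.29 in imiquimod. Aurka in Vaseline 1 stood barely above imiquimod 1. Their log2 fold changes were -1.58 (SE 0.63, edgeR adjusted p = 0.289) and -0.74 (SE 0.62, edgeR adjusted p = 0.514). Among genes above background fitted alone, Aurka was at 0.079, so its direction depended on the scaling.

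The chromosomal passenger complex corrects faulty attachments of chromosomes to the spindle and later guides cytokinesis. Its small subunit Birc5, or survivin, was at 23.2 and 45.0 CPM in Vaseline and 5.30 and 7.27 in imiquimod. Both imiquimod values lay far below both Vaseline values. The log2 fold change was -2.42 (SE 0.64, edgeR adjusted p = 0.0582). Cdca8, or borealin, was at 19.8 and 40.2 CPM in Vaseline and 12.6 and 7.56 in imiquimod, with a log2 fold change of -1.60 (SE 0.62, edgeR adjusted p = 0.278). The scaffold Incenp and the kinase Aurkb were at -1.54 and -1.44, so Birc5 was the lowest of the 4.

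Bub1 (ENSMUSG00000027379, chromosome 2, 127801122 to 127831865, minus strand, GRCm38 with GENCODE vM21), a kinase of the spindle checkpoint, had the smallest p of all members. It was at 12.5 and 31.1 CPM in Vaseline and 2.94 and 3.44 in imiquimod, a log2 fold change of -2.75 (SE 0.66, edgeR adjusted p = 0.0235). In imiquimod its level per kb was 1.33 and 1.02 times background, so its counts there (46 in imiquimod 1, the smallest count of any member) were near the background. Ube2c, which with the anaphase-promoting complex marks cyclins for destruction, was at 16.4 and 38.4 CPM in Vaseline and 10.0 and 2.66 in imiquimod. The imiquimod libraries differed widely from each other for this gene, with a log2 fold change of -2.20 (SE 0.64, edgeR adjusted p = 0.105). Bub1b, whose protein is part of the checkpoint complex, was at -1.96, Cdc20, the activator that the checkpoint holds back, at -1.001, and the checkpoint kinase Ttk at -0.76.

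The kinetochore genes gave log2 fold changes from -2.55 to -1.15 in 8 members, none past the adjusted threshold and 7 at an unadjusted p under 0.05. Cenpe, a motor that carries chromosomes to the spindle equator, was at 58.4 and 142 CPM in Vaseline and 18.7 and 15.7 in imiquimod. Spc25, a subunit of the Ndc80 complex that grips microtubules, was at 13.7 and 26.2 CPM in Vaseline and 4.22 and 3.12 in imiquimod. In both genes the imiquimod libraries lay close together and well below Vaseline. Spc25 was at 2.61 and 1.26 times background in imiquimod, so its values there were near the background. The log2 fold changes were -2.55 (SE 0.70, edgeR adjusted p = 0.0788) for Cenpe and -2.48 (SE 0.65, edgeR adjusted p = 0.0557) for Spc25. The other 3 subunits of the Ndc80 complex were alike in size, with Spc24 at -2.02, Ndc80 at -1.86 and Nuf2 at -1.81, the scaffold Knl1 was at -2.06 and Cenpf, a large protein of the outer kinetochore, at -1.80. Cenpa, the histone variant that marks centromeres, stood apart. It was at 74.4 and 203 CPM in Vaseline and 53.2 and 71.8 in imiquimod, with Vaseline 1 just above imiquimod 2.

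Spindle motors and microtubule proteins were 9 members, each at an unadjusted p under 0.05 and none past the adjusted threshold. Stmn1, or stathmin, which destabilises microtubules and is not restricted to dividing cells, was at 81.3 and 184 CPM in Vaseline and 29.8 and 9.84 in imiquimod. It had the lowest log2 fold change of all members, -2.77 (SE 0.74, edgeR adjusted p = 0.0613). As a ratio, its imiquimod libraries differed from each other by more than Vaseline 1 and imiquimod 1 did. Stmn1 too has a near-identical processed pseudogene. Hmmr, a spindle-associated protein that is also a hyaluronan receptor, was at 26.6 and 53.1 CPM in Vaseline and 7.92 and 8.26 in imiquimod. Its imiquimod libraries were nearly equal, and the log2 fold change was -2.30 (SE 0.64, edgeR adjusted p = 0.0849). The others were Nusap1, which bundles microtubules, at -2.26, the spindle assembly factor Tpx2 at -1.94, and the kinesins Kif11 (-2.24), Kif15 (-1.86), Kif4 (-1.68), Kif2c (-1.49) and Kif22 (-1.21).

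Genes of the central spindle and cytokinesis ranged from -2.29 to -1.15 in 7 members, 5 of them at an unadjusted p under 0.05 and none past the adjusted threshold. Kif20a, a kinesin of the central spindle, was at 24.2 and 47.4 CPM in Vaseline and 9.77 and 5.31 in imiquimod. Ect2, which activates RhoA to form the contractile ring, was at 28.2 and 55.5 CPM in Vaseline and 12.9 and 6.68 in imiquimod. Groups did not overlap in either gene. Their log2 fold changes were -2.29 (SE 0.64, edgeR adjusted p = 0.0849) and -2.13 (SE 0.64, edgeR adjusted p = 0.126). Kif23 and Racgap1, which form the centralspindlin complex, were at -2.18 and -1.68, Kif20b at -1.60, and the microtubule bundler Prc1 and the ring scaffold Anln at -1.16 and -1.15. Exons of other genes cover 29.3% of the exonic bases of Kif20a, the largest share among the members. Next were Ube2c (22.8%), Kif4 (15.1%), Ccna2 (12.5%) and Prc1 (11.1%). How the counting treated strand is not given in the sources used here.

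Mki67, Top2a and Hmgb2, genes of the mitotic and replicating chromosome, carried the most counts summed over the 4 libraries; in imiquimod 2, Cenpa with 2461 counts was above Top2a with 1837 and Hmgb2 with 1411. Mki67, the coat protein of mitotic chromosomes used as a proliferation marker, was at 545 and 1282 CPM in Vaseline and 199 and 189 in imiquimod. Top2a, which untangles sister DNA, was at 174 and 397 CPM in Vaseline and 66.4 and 53.6 in imiquimod. Both were well separated between groups. Vaseline 2 stood 2.35-fold above Vaseline 1 for Mki67 and 2.28-fold for Top2a, against 2.50-fold for Bub1, which passed. The log2 fold changes were -2.23 (SE 1.11, edgeR adjusted p = 0.359) for Mki67 and -2.25 (SE 0.84, edgeR adjusted p = 0.255) for Top2a. Both SE were above that of Bub1 (0.66). Abundant Langerhans cell markers such as Cd74 (SE 2.82) and Mfge8 (SE 2.32) had large SE too, and the reason was not tested. Hmgb2, a chromatin protein, was at -1.39. Per exonic kb and averaged over the 4 libraries, Mki67 was the most abundant member at 55.0 CPM per kb, followed by Hmgb2 at 44.5 and Stmn1 at 39.7, and Ttk was the least abundant at 1.33. This order did not hold in each library. In imiquimod 1 Hmgb2 stood above Mki67 (35.5 against 19.8 CPM per kb), and in both imiquimod libraries Bub1 stood below Ttk (0.675 against 0.948, and 0.791 against 1.02).

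Background counts weighed differently on the groups. The members' median ratio to background was 13.9 and 61.8 in Vaseline and 4.56 and 2.34 in imiquimod. Members under 2 times background numbered 0 in both Vaseline libraries, 2 in imiquimod 1 and 17 in imiquimod 2. Members under 5 times background numbered 1 in Vaseline 1, 0 in Vaseline 2, 27 in imiquimod 1 and 37 in imiquimod 2. All members but Ttk counted among the genes above background, most of them through their Vaseline levels, so the fold changes of those that did are no support for a difference.

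**Figure D4:**
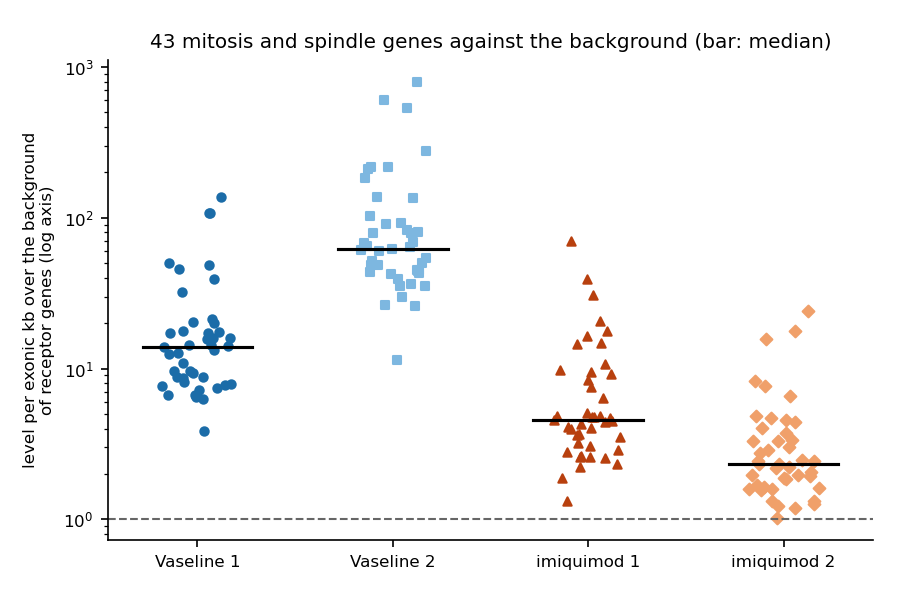
Level per exonic kb of each gene over the background of receptor genes in the same library, on a log axis; each symbol is 1 of the 43 genes, the bar is their median and the dashed line is the background itself. The medians are 13.9 and 61.8 in Vaseline and 4.56 and 2.34 in imiquimod.

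Within the set, some genes took a larger share and others a smaller share of the members' summed counts with imiquimod. The share was higher in both imiquimod libraries than in both Vaseline libraries for 15 members and lower in both for 13, and it overlapped for 15. Shares add up to a fixed whole, so higher shares must be offset by lower ones. With 2 libraries a group, order alone often separates the groups. No share over all genes was computed to set beside these counts, so they are a description only. Cenpa took 3.67% and 4.63% of the summed counts in Vaseline and 5.47% and 9.51% in imiquimod. Stmn1 took 4.01% and 4.20% in Vaseline and 3.07% and 1.30% in imiquimod. These shares do not depend on the scaling between libraries. Once background was subtracted, 21 of the 28 kept non-overlapping groups, Cenpa and Stmn1 among them. Ndc80, Nuf2, Spc24, Knl1, Kif15 and Ect2 overlapped before and were separate only after the subtraction. The shares were not tested.

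Other genes of the cell cycle were described from lists in the same way. Of all genes tested, 39.4% had a negative log2 fold change and 5.1% were lower at an unadjusted p under 0.05. Among genes above background 83.4% were negative, with a median of -0.69, so a list of negative genes is common there. Of 70 other mitotic genes, 69 had a negative log2 fold change with a median of -1.27, 37 were lower at an unadjusted p under 0.05 and 0 passed the adjusted threshold. Among them Cep55, needed for the final cut of cytokinesis, was at -2.52 (edgeR adjusted p = 0.051), the condensin subunit Ncapg at -2.27 and Cdca3 at -1.84, while Depdc1b was at 0.06. All 30 DNA replication genes were negative, with a median of -1.43 and 19 lower at an unadjusted p under 0.05. The replication factor Gins2 was at -2.35, the ligase Lig1 at -1.86 and Uhrf1, which maintains DNA methylation, at -1.78. All 12 G1 cyclin and E2F genes were negative with a median of -0.998, led by Ccne2 at -2.03, Ccnd1 at -2.01 and E2f1 at -1.50, and 4 were lower at an unadjusted p under 0.05. Genes for inhibitors of the cycle and for subunits of the DREAM complex were negative too. The 19 cell cycle inhibitors and DREAM subunits had a median of -0.73, with Rbl1 at -1.57, Rb1 at -1.44 and Cdkn2d at -1.30, and 4 were lower at an unadjusted p under 0.05. By the quasi-likelihood test no gene of these 4 lists passed the adjusted threshold in either direction. DESeq2 called 11 other mitotic genes, 8 DNA replication genes, 1 G1 cyclin or E2F gene and 1 inhibitor or DREAM gene lower. It called 1.69% of all genes lower. With library totals alone the medians were -0.37 for other mitotic genes, -0.58 for DNA replication genes, -0.18 for G1 cyclins and E2F and 0.071 for inhibitors and DREAM.

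Levels of the Langerhans cell markers differed between the groups in the same direction as the members. The summed level of the members was 2029 and 4390 CPM in Vaseline and 971 and 755 in imiquimod. That of the 12 Langerhans cell markers was 25307 and 66717 CPM in Vaseline and 9428 and 7714 in imiquimod. All 12 were lower without overlap, against 20.9% of all genes, with a median log2 fold change of -2.30 (-1.40 with library totals alone). By the quasi-likelihood test 0 of the 12 passed the adjusted threshold. At an unadjusted p under 0.05, 5 were lower, against 5.1% of all genes. DESeq2 called 11 lower, against 1.69% of all genes. Per 100 CPM of Langerhans cell markers the members summed to 8.02 and 6.58 CPM in Vaseline and 10.3 and 9.79 in imiquimod, and both imiquimod values lay above both Vaseline values. After background was subtracted from both, the ratios were 7.66 and 6.53 in Vaseline and 9.07 and 7.48 in imiquimod, so the groups overlapped. In bulk samples fewer cells of a type and less RNA per cell cannot be told apart.

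Basal keratinocytes and T cells, other dividing cells that the isolate could hold, were also represented. All 9 basal keratinocyte markers were detected in every library and summed to 17418 and 20511 CPM in Vaseline and 18046 and 4453 in imiquimod. Of the 9, 1 was lower without overlap, against 20.9% of all genes. The 8 T cell markers found summed to 274 and 312 CPM in Vaseline and 159 and 126 in imiquimod, with none at 0. Of these 8, 5 were lower without overlap, against the same 20.9%. Activated keratinocyte markers summed to 353 and 794 CPM in Vaseline and 1489 and 625 in imiquimod, with Defb3 at 0 in 3 libraries. Neutrophil markers summed to 13.0 and 9.07 CPM in Vaseline and 16.2 and 67.7 in imiquimod, with Stfa2l1 at 0 in Vaseline 2 and imiquimod 1 and Camp at 0 in imiquimod 1. The 13 mitochondrial transcripts were at 8244 and 14073 CPM in Vaseline and 3592 and 4673 in imiquimod. The part of these in the members' differences was not tested.

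**Figure D5:**
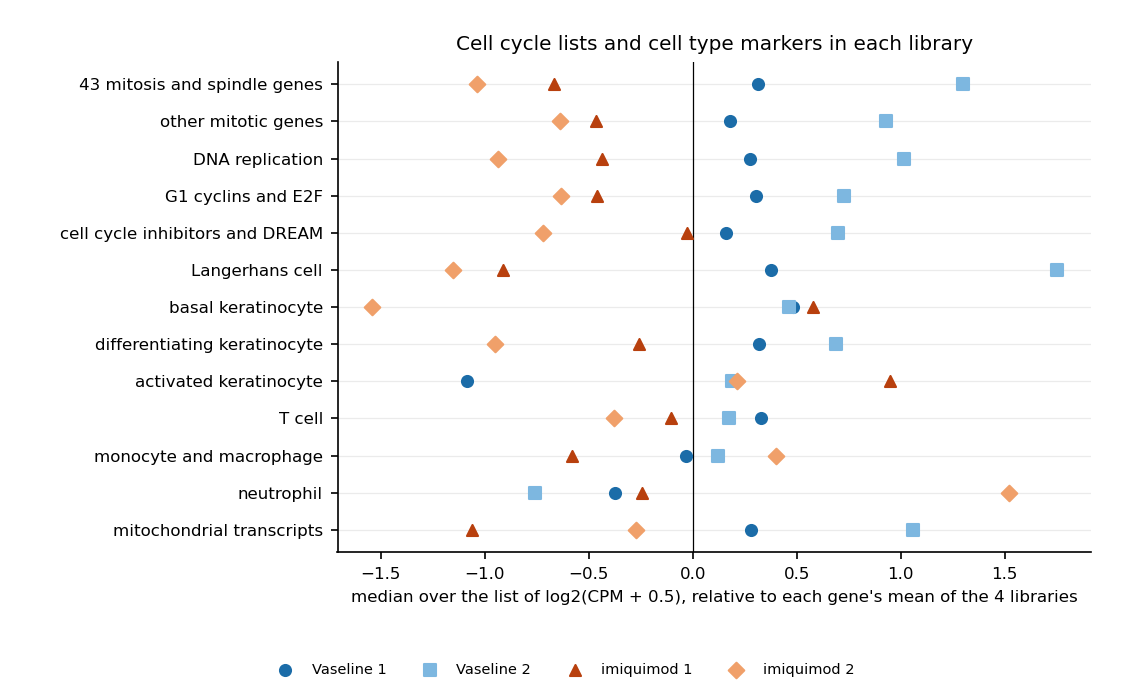
Median over each gene list of log2(CPM + 0.5), relative to each gene's mean over the 4 libraries; each symbol is 1 library. The 43 genes, the other cell cycle lists and the Langerhans cell markers are highest in Vaseline 2 and lowest in imiquimod 2.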

How the data were processed

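RNA from isolated ear Langerhans cells was sequenced in 4 libraries, 2 Vaseline and 2 imiquimod. Per the labels' protocols, each stranded, low-input library was made from 10 to 70 ng of total RNA. The authors deposited unscaled whole-number counts for each gene. Trimmomatic, HISAT2, SAMtools and StringTie with GRCm38 are listed, per the submitters' processing notes; versions, strand setting and treatment of multi-mapped reads are not given in the sources used here. Without molecular identifiers, PCR copies of 1 molecule cannot be told from separate molecules.

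The members and gene lists were chosen with earlier results of these data known. Counts of 55487 genes were filtered with filterByExpr of edgeR 4.0.16 (minimum count 10, minimum total 15), which kept 39439 genes. They were scaled with TMM and compared with the two-sided quasi-likelihood test, adjusted by Benjamini-Hochberg over all genes tested, at a threshold of 0.05. Each log2 fold change sets imiquimod against Vaseline, and its standard error (SE) was obtained by dividing it by the root of the F statistic. The quasi-likelihood form was not specified in the planned design. The installed version's default, the older form, was run first and called 0 members. The version 4 form (legacy = FALSE) was then taken, after both outputs had been seen, because an earlier analysis of these data used it. The calls of Bub1 and Ccnb2 rest on that choice. DESeq2 1.42.0 and limma 3.58.1 were alternatives. The script was tested on simulated data.

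The background is the median level per exonic kb of 1491 protein-coding olfactory and vomeronasal receptor genes, where exon lengths came from GENCODE vM21, which matched 55141 genes. It was narrowed to protein-coding genes after first values were seen, as were the cover minimum (25%, at 95% identity) of the search for near-identical transcripts (minimap2 2.31-r1302) and the 280 promoter bases shown. Exon overlaps were taken with bedtools 2.31.1. Promoter letters were searched on both strands; other cell cycle letters were looked at in a first pass and are not reported.

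Values in every library are given for members past the threshold, the 2 of smallest p in each role and those with the lowest and highest fold change; up to 3 genes of smallest p are named in each other cell cycle list. Cdc20, Ccnb1, Cenpa and Depdc1b were added after their values were seen.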

Additional observations from a re-analysis of the deposited data

How the results depend on the processing

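The number of members called lower, 2 at the outset (Bub1 and Ccnb2), ran from 0 to 27. It was 27 with DESeq2, against 667 of all 39439 genes tested. With limma-voom it was 11, against 136 of 39439, and with upper-quartile factors 3, against 56 of 39439. With a stricter filter it was 10, against 124 of 28545 genes. Among genes above background with DESeq2 it was 10, against 155 of 14390. The number was 0 with RLE factors, library totals alone, no filter, genes above background and the older quasi-likelihood form. Leaving out 1 library at a time gave 0 to 13, the 13 without Vaseline 1; the library left alone in its group is then assumed to vary like the other group. No setting called a member higher.

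The members' median log2 fold change, -1.86, was -0.95 with library totals alone, -1.01 among genes above background and -1.05 there with DESeq2, and -2.35 to -1.22 with 1 library left out. Aurka turned to 0.13 with library totals alone, 0.079 among genes above background and 0.046 there with DESeq2. No cause was tested. Genes above background were chosen by a mean ratio that weights Vaseline, and most members met it through their Vaseline levels.

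Over all genes, 54 were lower and 25 higher. With DESeq2 these were 667 and 6, with limma-voom 136 and 41, with a stricter filter 124 and 27, with upper-quartile factors 56 and 41, and with RLE factors 14 and 17. Library totals alone gave 5 and 8, the older quasi-likelihood form 5 and 3, no filter 0 and 0, genes above background 0 and 0, and those with DESeq2 155 and 99. With 1 library left out, 0 to 317 were lower and 8 to 2959 higher, the largest counts without Vaseline 1.

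The replicate numbers in the titles do not show that libraries were paired. With the replicate block, 0 members, 0 genes lower and 1 higher were called. Same-numbered libraries deviated oppositely (correlation -0.407), and with the crossed replicate block 0 members, 0 genes lower and 0 higher were called. The older form, genes above background with DESeq2 and the crossed block were added after the data were seen. With 2 libraries a group the spread, a biological coefficient of variation of 0.607, limits what can be called, and in imiquimod 2 counts of 17 members lay under 2 times background.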
